A study of Homo sapiens with 12 samples.

Results

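The linker histone gene H1F0 and 9 genes for other variant histones were followed across chidamide-treated and vehicle-treated lymphoma cells. They are H1F0, H1FX, H2AFJ, H2AFX, H2AFY, H2AFY2, H2AFZ, H2AFV, H3F3A and H3F3B, taken by symbol from the count table, 10 of its 26364 genes. Polyadenylated RNA was sequenced from cells labelled JeKo-1 and Granta-519, the names of established lines of mantle cell lymphoma, a B-cell cancer. Each line received 4 µM chidamide, an inhibitor of class I histone deacetylases and HDAC10, or vehicle for 12 h, in RPMI1640 medium with serum. Each of the 4 groups had 3 libraries, and no genetic change or further agent was named. Library totals ran from 12873642 to 16592694 counts. Whether the replicates of a group were grown as separate cultures was not stated, and p-values describe a spread that may be technical.

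Core histones wrap DNA into nucleosomes, and linker histones bind the DNA where it enters and leaves. Most histone genes are copied into RNA in S phase and end in a stem-loop in place of a poly(A) tail. Variant genes such as the members can be expressed outside S phase too and can give polyadenylated RNA. Their proteins are placed by dedicated chaperones and exchange complexes. H1F0 encodes H1.0, a linker histone known to accumulate in differentiated and resting cells and to respond to deacetylase inhibitors.

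Promoters are shown for 4 members. H1FX and H2AFJ were taken because they rose in both lines, by more than H2AFX, which also rose in both. H2AFZ and H2AFV were taken because they encode near-identical H2A.Z proteins and took different courses. The sequences are the 250 bases before the transcription start, 5′ to 3′ on the gene's strand, from RefSeq on GRCh38.p14. They lie at chr3:129316287-129316536 (H1FX, minus strand), chr12:14774155-14774404 (H2AFJ, plus strand), chr4:99950276-99950525 (H2AFZ, minus strand) and chr7:44848088-44848337 (H2AFV, minus strand). Capitals mark CCAAT (which reads ATTGG when it lies on the opposite strand), the motif GGGCGG (which then reads CCGCCC) and the motif TATAAA; all other bases are in lower case.
H1FX: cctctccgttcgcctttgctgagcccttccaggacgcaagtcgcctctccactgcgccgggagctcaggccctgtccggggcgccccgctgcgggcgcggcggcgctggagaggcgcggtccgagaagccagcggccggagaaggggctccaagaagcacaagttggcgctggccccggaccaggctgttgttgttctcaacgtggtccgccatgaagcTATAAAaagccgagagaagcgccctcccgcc
H2AFJ: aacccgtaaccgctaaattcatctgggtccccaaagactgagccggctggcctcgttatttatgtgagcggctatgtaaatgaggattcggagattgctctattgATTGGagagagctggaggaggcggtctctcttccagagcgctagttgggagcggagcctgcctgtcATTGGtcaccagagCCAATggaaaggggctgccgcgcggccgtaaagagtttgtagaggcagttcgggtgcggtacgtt
H2AFZ: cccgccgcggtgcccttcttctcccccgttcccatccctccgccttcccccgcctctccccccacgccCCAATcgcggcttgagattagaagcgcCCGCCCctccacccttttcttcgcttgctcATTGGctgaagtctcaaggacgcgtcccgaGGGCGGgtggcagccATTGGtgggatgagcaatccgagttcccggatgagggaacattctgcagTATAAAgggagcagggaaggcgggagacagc
H2AFV: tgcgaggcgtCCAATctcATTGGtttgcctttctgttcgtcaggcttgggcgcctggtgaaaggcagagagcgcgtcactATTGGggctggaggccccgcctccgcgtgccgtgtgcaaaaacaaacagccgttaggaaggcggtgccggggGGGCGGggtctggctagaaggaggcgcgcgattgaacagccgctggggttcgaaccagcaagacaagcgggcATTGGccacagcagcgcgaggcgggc

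The promoter table matched 9 of the 10 members, with 13 windows of 300 bases that reach 50 bases past the start. H1F0 was not matched. In these windows H1FX held TATAAA alone, with its first base 31 bases before the start, at the same distance as in H2AFX and H2AFZ. H2AFJ held 3 CCAAT matches, H2AFZ held 3 with 2 GGGCGG and 1 TATAAA, and H2AFV held 4 with 1 GGGCGG match. Members are counted where any of their windows holds a motif (H3F3A has 4 windows and H2AFY 2), whereas the share of all promoters is over single windows. CCAAT was found on either strand in 7 of 9 matched members, in 9 of their 13 windows and in 34.6% of all 35116 promoters in the table. TATAAA was found in 4 of 9 members (H1FX, H2AFX, H2AFZ and H3F3B), in 4 of 13 windows and in 11.5% of all promoters, and GGGCGG in 5 of 9, in 8 of 13 windows and in 45.0%. AAACACA was found in 1 of 9 members, 2 of 13 windows and 5.64% of promoters, CACGTG in 0 of 9 and 7.26%, and TGACGTCA in 0 of 9 and 1.85%. Overlapping matches were counted, and a match describes letters in a window, not a bound site.

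The labels were checked on marker genes first. All 6 B-cell markers had counts in every group. SOX11, whose RNA marks most mantle cell lymphomas, had 0 counts in every library labelled JeKo-1, and CCND1 had 5 counts over the vehicle and 44 over the chidamide libraries. In Granta-519 vehicle libraries SOX11 stood at 157 ± 7.52 CPM and CCND1 at 2114 ± 43.0 CPM (CPM, counts scaled to a fixed library size after TMM normalization; SD, n = 3). JeKo-1 is known to express both genes, so the 6 libraries with that label go against it here. They are called by their label throughout, and which cells they hold was not tested. Markers of other cell types were low, and their summed levels were higher in chidamide without overlap in both lines. The sum of 5 myeloid markers went from 0.414–0.889 to 12.4–13.3 CPM under the JeKo-1 label and from 1.07–1.65 to 19.5–21.3 CPM in Granta-519. The sum of 5 T and natural killer cell markers went from 2.73–4.35 to 4.84–7.39 CPM and from 0.400–0.570 to 0.949–1.48 CPM, and that of 5 erythroid markers from 0–0.0828 to 0.356–0.700 CPM and from 0.0666–0.506 to 1.16–1.55 CPM. Of the myeloid list 2 genes were tested, and 2 rose under the JeKo-1 label and 1 in Granta-519; of the T and natural killer cell list 2 were tested, with the same counts, and of the erythroid list 0. Among defining markers, S100A8, CD3D and HBB were at 0 in every group but JeKo-1-labelled chidamide, and CD2 in every group but Granta-519 chidamide. The part of such RNA in the values below was not tested.

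Of the 10 members, 9 passed the filter on low counts. H3F3A, a gene for the replacement histone H3.3, was listed at 0 in all 12 libraries. Its processed copy H3F3AP4 was listed at 0 as well. Why the H3F3A row is at 0 was not tested, and it is not used as a measure of H3F3A expression. Calls below come from edgeR's quasi-likelihood test with Benjamini-Hochberg adjustment over all 15087 tested genes and a threshold of 0.05. Under the JeKo-1 label, 5 of the 9 tested members rose with chidamide (H1FX, H2AFJ, H2AFX, H2AFV and H2AFY2), against 35.3% of all tested genes. There 2 members fell (H2AFY and H2AFZ), against 31.1% of genes, and 66.4% of genes passed in either direction. In Granta-519, 4 members rose (H1F0, H1FX, H2AFJ and H2AFX), against 39.6% of genes, and 3 fell (H2AFY, H2AFY2 and H2AFZ), against 31.3%, with 70.9% of genes passing in either direction. With so many genes called, these shares are read as a background: 7 of 9 members changed in each line. Under the JeKo-1 label H1F0 had 0 counts and could not be called, and the rise of H2AFY2 rests on 7 counts. Both genes passed the filter only through Granta-519. The members' median log2 change was 0.21 under the JeKo-1 label and 0.07 in Granta-519, beside 0.04 and 0.08 over all tested genes.

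**Figure D1:**
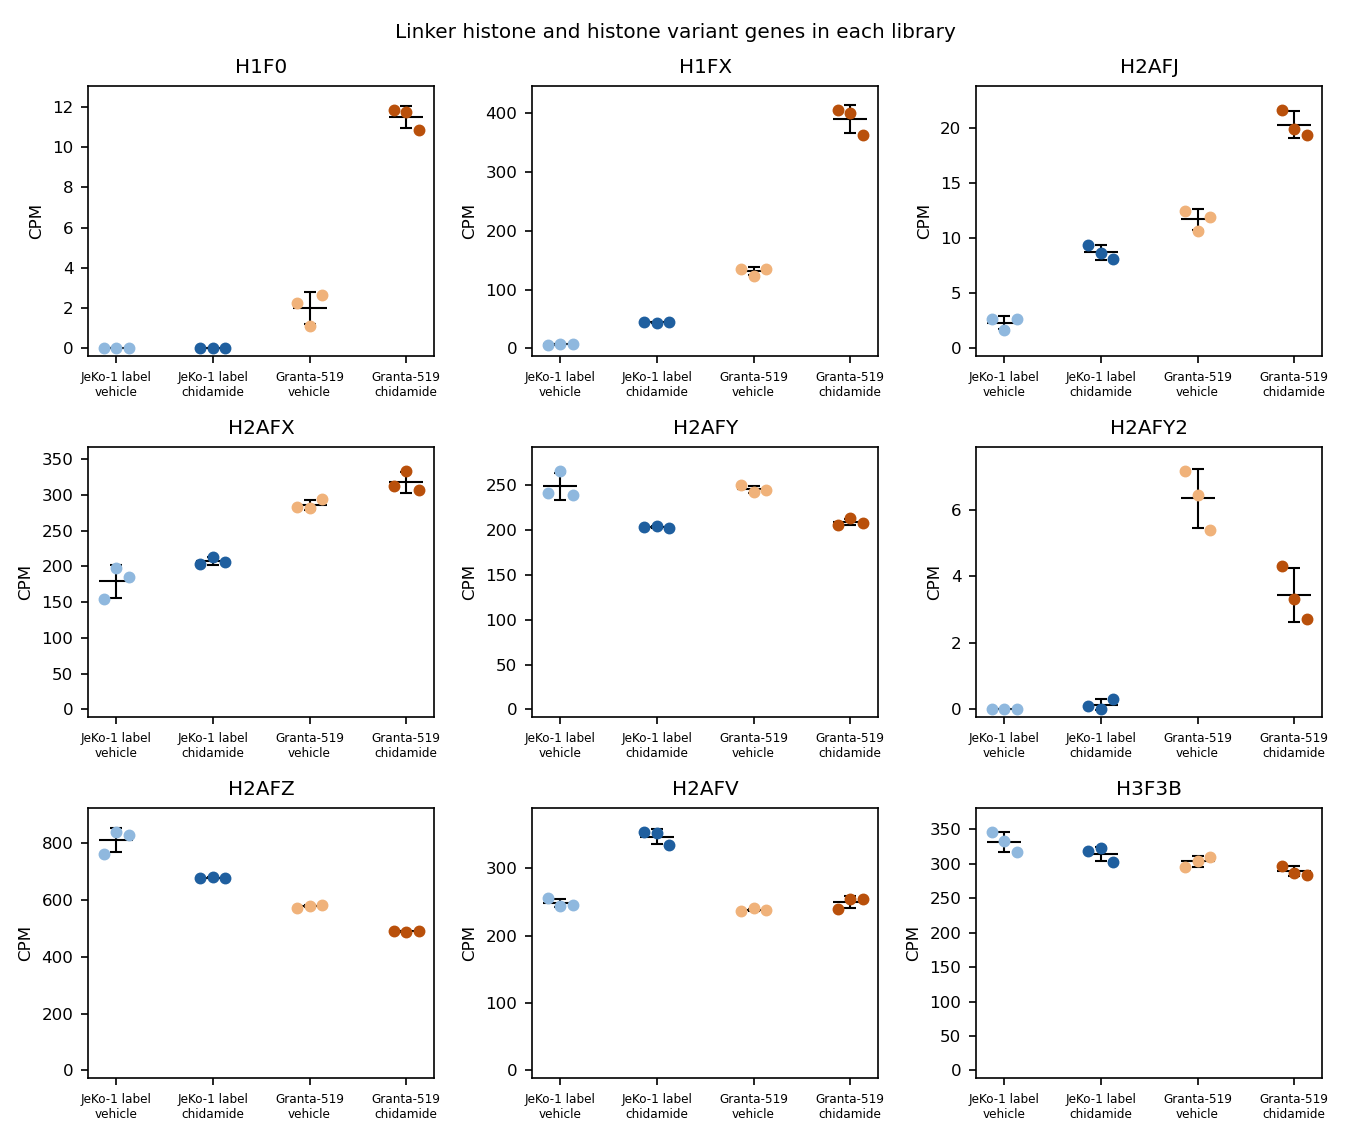
Level of each member with counts, in CPM (vertical axes, starting at 0), in the 4 groups on the horizontal axis; points are libraries, long bars the mean and short bars 1 SD (n = 3). H1F0 is at 0 in all libraries labelled JeKo-1, and H1FX and H2AFJ are higher in chidamide than in vehicle in both lines.

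Among the linker histones, H1F0 was detected in Granta-519 alone. It had 0 counts in each of the 6 libraries labelled JeKo-1, treated or not. In Granta-519 its level was 2.28, 1.14 and 2.67 CPM in vehicle libraries and 11.9, 11.7 and 10.8 CPM in chidamide libraries, from 93 and 499 counts over each group. Every treated library lay above every vehicle library, and the lowest value was vehicle replicate 2. The mean rose from 2.03 ± 0.794 to 11.5 ± 0.547 CPM (SD, n = 3), a log2 change of 2.50 ± 0.20 (SE; edgeR adjusted p = 9.89e-16). Against a floor of 3 counts over the group, Granta-519 was at least 26.9-fold above the JeKo-1 label in vehicle and at least 179-fold above it in chidamide. These bounds cover counting error only. A change of H1F0 under the JeKo-1 label was not detectable at this depth.

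H1FX encodes H1.10, the linker histone variant that is expressed in most cell types. Under the JeKo-1 label its level was 5.54, 7.05 and 8.20 CPM in vehicle and 45.0, 43.0 and 45.1 CPM in chidamide. In Granta-519 it was 135, 124 and 135 CPM in vehicle and 405, 400 and 362 CPM in chidamide. The 4 groups did not overlap: JeKo-1-labelled libraries were lowest even when treated, and the treated Granta-519 libraries were highest. H1FX rose 6.40-fold under the JeKo-1 label (log2 2.69 ± 0.09, edgeR adjusted p = 1.02e-31). In Granta-519 it rose 2.96-fold (log2 1.57 ± 0.05, edgeR adjusted p = 1.17e-32). Between lines it was 18.9-fold lower under the JeKo-1 label in vehicle and 8.77-fold lower in chidamide (edgeR adjusted p = 5.92e-45 and 5.11e-46). The antisense gene H1FX-AS1 overlaps H1FX, and the strand setting of the counting is not given in the sources used here. That row had 0, 0 and 4 counts in vehicle and 5, 3 and 4 in chidamide under the JeKo-1 label, and in Granta-519 40, 40 and 40 in vehicle and 27, 30 and 18 in chidamide.

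H2AFJ encodes H2A.J, a variant known to accumulate in senescent cells with DNA damage. It was measured at 2.67, 1.65 and 2.65 CPM in vehicle and 9.39, 8.68 and 8.08 CPM in chidamide under the JeKo-1 label. Granta-519 had 12.5, 10.7 and 11.9 CPM in vehicle and 21.6, 19.9 and 19.4 CPM in chidamide. As for H1FX, treated and vehicle libraries did not overlap in either line, and the treated libraries labelled JeKo-1 stayed below untreated Granta-519. H2AFJ rose 3.75-fold under the JeKo-1 label (log2 1.91 ± 0.17, edgeR adjusted p = 1.34e-14) and 1.73-fold in Granta-519 (log2 0.80 ± 0.11, edgeR adjusted p = 6.82e-09). On the deposited length-scaled score with a pseudocount of 0.1, which understates low genes, the first change was 1.13.

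H2AFX encodes H2A.X, which is phosphorylated around DNA breaks. Its level under the JeKo-1 label was 154, 198 and 186 CPM in vehicle and 203, 213 and 206 CPM in chidamide. Granta-519 libraries had 283, 282 and 294 CPM in vehicle and 312, 334 and 307 CPM in chidamide. Treated libraries lay above vehicle libraries in both lines, with gaps much smaller than those of H1FX and H2AFJ. The rise was 0.21 ± 0.06 on the log2 scale under the JeKo-1 label (edgeR adjusted p = 0.00165) and 0.15 ± 0.05 in Granta-519 (edgeR adjusted p = 0.0164). The first became 0.12 without vehicle replicate 1, its lowest library, and still passed (edgeR adjusted p = 0.0194). The second no longer passed in 7 of its 21 alternatives, among them the length-scaled score (limma adjusted p = 0.0972) and a fit of both Granta-519 groups alone (edgeR adjusted p = 0.0616). Leaving out chidamide replicate 2, vehicle replicate 1 or vehicle replicate 2 of Granta-519 also ended it (edgeR adjusted p = 0.0560, 0.0627 and 0.0635).

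The macroH2A genes, H2AFY for macroH2A1 and H2AFY2 for macroH2A2, encode large variants with a macro domain that are known from the inactive X chromosome and from silenced genes. H2AFY was 241, 266 and 239 CPM in vehicle and 204, 205 and 203 CPM in chidamide under the JeKo-1 label. The Granta-519 values were 250, 242 and 244 CPM in vehicle and 206, 213 and 208 CPM in chidamide. Vehicle libraries of the lines overlapped, and all treated libraries lay below all vehicle libraries of their line. H2AFY fell by 0.29 ± 0.04 on the log2 scale under the JeKo-1 label and by 0.23 ± 0.04 in Granta-519 (edgeR adjusted p = 4.62e-08 and 3.30e-06). Under upper-quartile scaling both changes were -0.14 and passed.

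H2AFY2 was low and was found mainly in Granta-519. There its vehicle libraries had 7.17, 6.46 and 5.40 CPM and its chidamide libraries 4.32, 3.32 and 2.71 CPM. These groups did not overlap, and H2AFY2 fell by 0.88 ± 0.21 on the log2 scale (edgeR adjusted p = 0.000298). With a pseudocount of 0.01 on the length-scaled score this fall did not pass (limma adjusted p = 0.0580). Under the JeKo-1 label it had 0 counts in each vehicle library and 2, 0 and 5 counts in the chidamide libraries. The rise there passed (edgeR adjusted p = 0.0201) and amounts to at least 2.00-fold against a floor of 3 counts over the group. It was lost without chidamide replicate 3 (edgeR adjusted p = 0.150), without vehicle replicate 1 (edgeR adjusted p = 0.0530) and on the length-scaled score (limma adjusted p = 0.285). Against Granta-519 the JeKo-1 label was at least 84.7-fold lower in vehicle and 23.7-fold lower in chidamide. H2AFY2 passed the count filter only through Granta-519, where it is higher, so a test between the lines lends this difference no weight. The value in chidamide rests on 7 counts under the JeKo-1 label. Its log2 difference of -4.45 became -5.58 without chidamide replicate 3 and -3.96 without chidamide replicate 2 of that label.

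H2AFZ and H2AFV encode H2A.Z.1 and H2A.Z.2, which sit beside active transcription start sites. H2AFZ was 765, 841 and 831 CPM in vehicle and 679, 680 and 679 CPM in chidamide under the JeKo-1 label. In Granta-519 it was 574, 580 and 582 CPM in vehicle and 492, 489 and 492 CPM in chidamide. It fell in both lines without overlap, by 0.26 ± 0.04 and 0.24 ± 0.04 on the log2 scale (edgeR adjusted p = 1.93e-08 and 1.42e-07). Under upper-quartile scaling the changes were smaller, -0.11 and -0.14, and passed. H2AFV was 256, 244 and 245 CPM in vehicle and 354, 352 and 334 CPM in chidamide under the JeKo-1 label. In Granta-519 the values were 237, 240 and 238 CPM in vehicle and 239, 255 and 254 CPM in chidamide. The treated JeKo-1-labelled libraries stood above all the other H2AFV values, while the Granta-519 groups overlapped. H2AFV rose 1.40-fold under the JeKo-1 label (log2 0.48 ± 0.04, edgeR adjusted p = 1.37e-15). Its change in Granta-519 was 0.07 ± 0.04 and did not pass (edgeR adjusted p = 0.150); it passed with DESeq2, RLE size factors, upper-quartile scaling or without chidamide replicate 1 (adjusted p = 0.0206, 0.0240, 0.000453 and 0.0299).

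H3F3B, the other gene for H3.3, was 346, 333 and 318 CPM in vehicle and 319, 323 and 303 CPM in chidamide under the JeKo-1 label. In Granta-519 it was 295, 305 and 310 CPM in vehicle and 297, 287 and 283 CPM in chidamide. Treated and vehicle libraries overlapped in both lines. Its log2 change was -0.08 ± 0.04 under the JeKo-1 label and -0.07 ± 0.04 in Granta-519, and neither passed (edgeR adjusted p = 0.0862 and 0.124). The sign turned positive with library size alone under the JeKo-1 label (0.05) and with upper-quartile scaling in both lines (0.07 and 0.03). In Granta-519 a fall passed without a count filter (edgeR adjusted p = 0.000138) and in a fit of its groups alone (edgeR adjusted p = 0.00113). Under the JeKo-1 label a fall passed without vehicle replicate 3 (edgeR adjusted p = 0.0234).

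**Figure D2:**
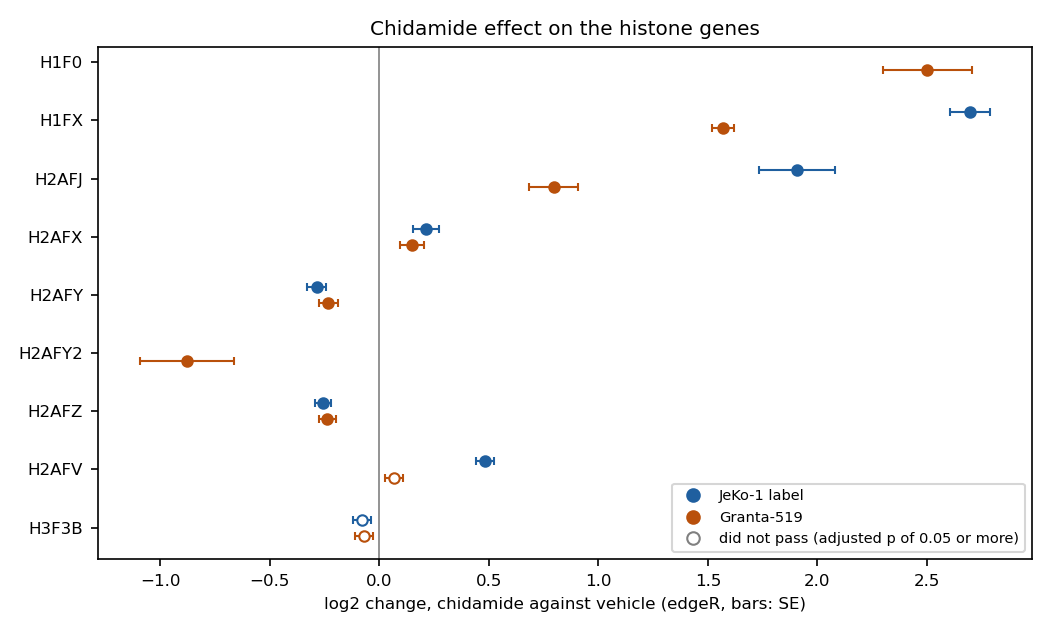
Log2 change with chidamide against vehicle (horizontal axis, edgeR) for the members in the libraries labelled JeKo-1 and in Granta-519, with bars of 1 SE. H1FX and H2AFJ lie far to the right in both lines, H2AFY and H2AFZ lie to the left of 0, and H1F0 and H2AFY2 have no fitted fold drawn under the JeKo-1 label.

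The chidamide effects of the lines were compared with an interaction term. It was more positive under the JeKo-1 label for 4 of the 9 tested members, against 20.0% of all tested genes, and less positive for 0 members, against 19.5%, while 39.5% of genes passed in either direction. By an unadjusted edgeR p under 0.05 and by DESeq2, 0 members were less positive as well, and by limma on the length-scaled score 1 was, H1F0. The difference was 1.13 ± 0.11 on the log2 scale for H1FX (edgeR adjusted p = 2.18e-12), 1.11 ± 0.21 for H2AFJ (edgeR adjusted p = 1.84e-05) and 0.42 ± 0.06 for H2AFV (edgeR adjusted p = 3.07e-08). For H2AFY2 it passed too (edgeR adjusted p = 0.00900) and was lost without JeKo-1-labelled chidamide replicate 3 (edgeR adjusted p = 0.120). For H2AFJ it was 0.49 on the length-scaled score with the pseudocount of 0.1. H2AFX, H2AFY, H2AFZ and H3F3B had differences of 0.06 ± 0.08, -0.05 ± 0.06, -0.02 ± 0.05 and -0.01 ± 0.06, which did not pass (edgeR adjusted p = 0.584, 0.526, 0.841 and 0.964). For 3 of these genes another setting passed. H2AFX did with library size alone (0.20, edgeR adjusted p = 0.0380) and without a count filter (0.22, edgeR adjusted p = 0.00238). H2AFZ did with the opposite sign on the length-scaled score (0.13, limma adjusted p = 0.0354) and without a filter (0.14, edgeR adjusted p = 0.0461), and H3F3B without a filter (0.15, edgeR adjusted p = 0.0498). H1F0, at 0 throughout one line, has no usable fitted difference there. It is among the 9 tested members but could not be called by edgeR, so the 0 less positive members say nothing of it.

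In vehicle, 2 of the 9 tested members were higher under the JeKo-1 label than in Granta-519 (H2AFZ and H3F3B), against 35.5% of genes, and 5 were lower (H1F0, H1FX, H2AFJ, H2AFX and H2AFY2), against 44.3%, with 79.8% of genes passing in either direction. In chidamide, 3 were higher (H2AFZ, H2AFV and H3F3B), against 36.4%, and 5 were lower (those lower in vehicle), against 45.3%, with 81.7% passing in either direction. H1F0 and H2AFY2 passed the count filter only through Granta-519, where they are higher, so their calls lend no weight to either count of lower members. The members' median log2 difference was -0.68 in vehicle and -0.61 in chidamide, beside -0.13 and -0.11 over all tested genes. H2AFJ was lower under the JeKo-1 label by 2.33 ± 0.16 on the log2 scale in vehicle and by 1.22 ± 0.11 in chidamide (edgeR adjusted p = 3.49e-19 and 2.85e-14). H2AFX was lower by 0.68 ± 0.06 and 0.61 ± 0.06 (edgeR adjusted p = 2.10e-12 and 1.35e-11). H2AFZ was higher by 0.49 ± 0.04 and 0.47 ± 0.04 (edgeR adjusted p = 7.91e-18 and 4.60e-17). H2AFV differed between treated cells by 0.47 ± 0.04 (edgeR adjusted p = 6.94e-16), whereas in vehicle its difference of 0.06 ± 0.04 did not pass (edgeR adjusted p = 0.183). H2AFY did not pass in either condition (0.02 ± 0.04 and -0.04 ± 0.04, edgeR adjusted p = 0.692 and 0.443). In vehicle it was lower under the JeKo-1 label and passed on the length-scaled score (-0.13, limma adjusted p = 0.00851) and with library size alone (-0.12, edgeR adjusted p = 0.00869). H3F3B was higher by 0.13 ± 0.04 and 0.12 ± 0.04 (edgeR adjusted p = 0.00294 and 0.00517). Its call in vehicle was lost under upper-quartile scaling (edgeR adjusted p = 0.163) and without JeKo-1-labelled vehicle replicate 1 (edgeR adjusted p = 0.0512). With library size alone its sign turned (-0.00556). Its call in chidamide was lost without Granta-519 chidamide replicate 3 or JeKo-1-labelled chidamide replicate 2 (edgeR adjusted p = 0.0503 and 0.0619).

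Levels of different genes were ordered on the deposited length-scaled score, a count divided by a constant of the gene and by the library total. H2AFZ led in all 4 groups, with mean scores of 159 and 146 in vehicle and chidamide under the JeKo-1 label and 125 and 105 in Granta-519. In vehicle libraries labelled JeKo-1, H3F3B (21.5), H2AFX (20.9) and H2AFY (20.4) followed with overlapping ranges, then H2AFV (9.79), H1FX (0.852) and H2AFJ (0.0614), with H1F0 and H2AFY2 at 0. In chidamide these became H2AFX (26.5), H3F3B (22.4), H2AFY (18.3), H2AFV (14.99), H1FX (5.99), H2AFJ (0.253) and H2AFY2 (0.0136), and the last overlapped H1F0 at 0. The order from H2AFV down to H2AFJ thus stayed, while the gap between H2AFV and H2AFY narrowed. In Granta-519 vehicle libraries H2AFX (36.8) came second, H2AFY (22.2) and H3F3B (21.7) overlapped, and H1FX (17.8), H2AFV (10.4), H2AFY2 (0.595), H2AFJ (0.341) and H1F0 (0.178) followed. In chidamide H1FX (52.5) stood second, above H2AFX (40.5), H3F3B (20.5), H2AFY (18.8) and H2AFV (10.8), and H1F0 (1.00) stood above H2AFJ (0.588) and H2AFY2 (0.322). All other neighbours in these orders had ranges that did not overlap.

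Within pairs of related genes the share of each was taken on the same score, which library scaling does not touch. H2AFV made up 5.81% ± 0.43 of the H2AFV and H2AFZ score in vehicle and 9.31% ± 0.27 in chidamide under the JeKo-1 label (SD, n = 3). In Granta-519 it made up 7.66% ± 0.047 and 9.29% ± 0.32. Treated libraries were above vehicle libraries in both lines, by 3.50 and 1.62 percentage points. H1F0 made up 0.978% ± 0.347 of the H1F0 and H1FX score in Granta-519 vehicle libraries and 1.87% ± 0.026 in chidamide. H2AFY2 made up 2.61% ± 0.33 of the macroH2A score there in vehicle and 1.69% ± 0.41 in chidamide. Each of these 4 differences separated the groups and gave an exact two-sided permutation p of 0.1, the smallest that 3 libraries against 3 allow, so none could reach 0.05. The H2AFY2 share under the JeKo-1 label was 0 in vehicle and averaged 0.0743% in chidamide (exact two-sided permutation p = 0.4).

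**Figure D3:**
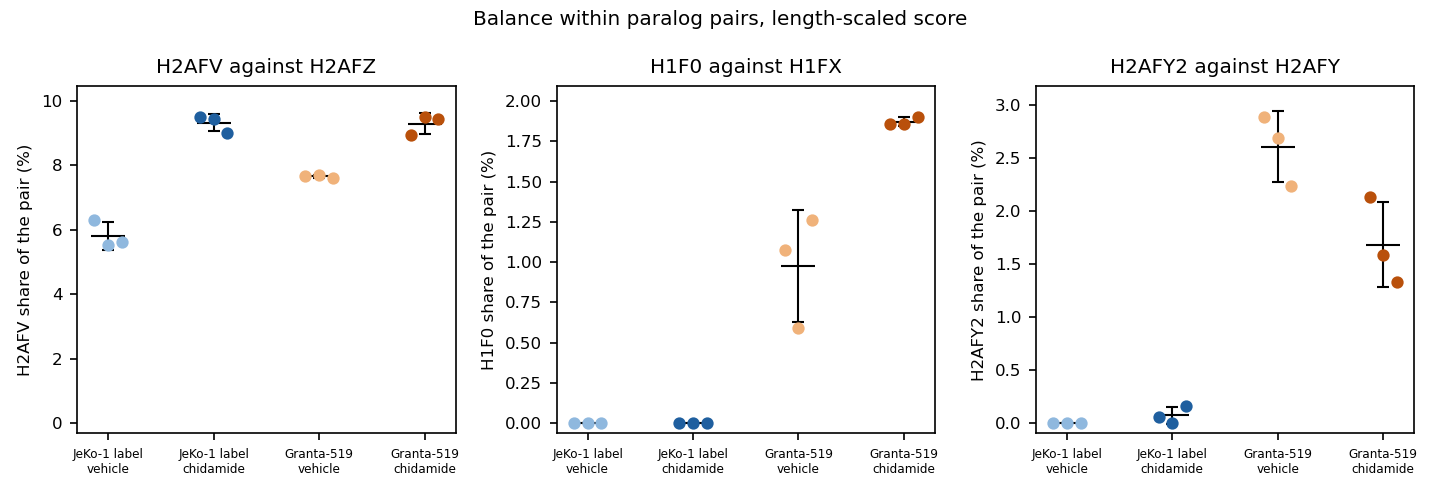
Share of one gene in the length-scaled score of a pair of related genes (vertical axes, percent) in the 4 groups; points are libraries, long bars the mean and short bars 1 SD (n = 3). The H2AFV share is higher in chidamide in both lines, 9.31% and 9.29%, and the H2AFY2 share is lower in chidamide in Granta-519.

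Genes that make or place histones were described from lists chosen with earlier results known. Genes with symbols HIST1H to HIST4H are called replication-dependent histones here. They were taken by symbol alone and not screened for pseudogenes. Of these 73 genes, 12 had no count and 21 were tested, and a gene high in one group alone could pass the filter. Of the 21, 13 rose and 0 fell under the JeKo-1 label, where 35.3% of all tested genes rose and 31.1% fell. In Granta-519, 10 rose and 0 fell, where 39.6% of all tested genes rose and 31.3% fell. At an unadjusted edgeR p under 0.05 and with DESeq2, 0 fell as well; without the count filter 1 fell under the JeKo-1 label. Their median log2 changes were 0.87 and 0.75, beside 0.04 and 0.08 over all tested genes. A fit of the JeKo-1-labelled groups alone called 8 higher. HIST1H2BG, an H2B gene, had 6 counts over the vehicle and 45 over the chidamide libraries labelled JeKo-1, and HIST2H2BF had 7 and 37. In Granta-519 HIST2H2BE went from 1.06 to 4.35 CPM (log2 2.02 ± 0.27) and HIST4H4 from 16 to 39 counts. Summed over all 73, every treated library was above every vehicle library of its line, with means going from 39.5 ± 2.53 to 60.6 ± 2.46 CPM under the JeKo-1 label and from 54.4 ± 4.00 to 85.9 ± 2.03 CPM in Granta-519 (SD, n = 3). These genes held at most 0.00888% of the counts of a library. As polyadenylated RNA was sequenced, the values do not describe their RNA that ends in a stem-loop. HIST1H4J and HIST1H4K, near-identical copies, are uncertain. Of 11 other histone variants, HILS1 and CENPA were tested: HILS1 rose under the JeKo-1 label (1 and 12 counts over the groups, edgeR adjusted p = 0.0129), and CENPA did not pass in either line (edgeR adjusted p = 0.371 and 0.319).

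Factors that place histones were read against the 31.1% and 31.3% of all tested genes that fell, and the 35.3% and 39.6% that rose, under the JeKo-1 label and in Granta-519. Of 12 H2A.Z exchange factors, 11 fell under the JeKo-1 label and 10 in Granta-519, and 0 rose (0 at an unadjusted edgeR p under 0.05 and 0 with DESeq2), with medians of -0.46 and -0.39. RUVBL2, an ATPase of the SRCAP and p400 complexes, fell from 256 to 134 CPM under the JeKo-1 label (log2 -0.93 ± 0.05), and KAT5, the acetyltransferase of the p400 complex, from 21.1 to 12.4 CPM (-0.76 ± 0.10). In Granta-519 KAT5 fell from 27.6 to 13.9 CPM (-0.99 ± 0.09) and VPS72, which binds H2A.Z, from 50.3 to 27.1 CPM (-0.89 ± 0.08). Of 12 H3 and CENP-A chaperones, 2 rose and 8 fell under the JeKo-1 label and 1 rose and 8 fell in Granta-519, with medians of -0.37 and -0.36. UBN1 and HIRA, subunits of the complex that places H3.3 in active genes, fell from 161 to 83.2 CPM (-0.95 ± 0.05) and from 177 to 96.4 CPM (-0.88 ± 0.05) under the JeKo-1 label. In Granta-519 UBN1 fell from 129 to 75.8 CPM (-0.77 ± 0.05) and its relative UBN2 from 44.4 to 27.8 CPM (-0.67 ± 0.07). ATRX, which works with DAXX on H3.3 in repeats, rose from 106 to 136 CPM (0.37 ± 0.06) under the JeKo-1 label and from 140 to 182 CPM (0.39 ± 0.06) in Granta-519. DAXX itself fell under the JeKo-1 label (-0.41 ± 0.05) and in Granta-519 (-0.43 ± 0.05). ASF1A rose under the JeKo-1 label from 59.2 to 68.0 CPM (0.20 ± 0.07) and fell in Granta-519 (-0.32 ± 0.09, edgeR adjusted p = 0.000851). Without JeKo-1-labelled chidamide replicate 2 or vehicle replicate 2, 1 gene of the list rose there.

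Of 8 chaperones of linker histones and of H2A with H2B, 1 rose and 6 fell under the JeKo-1 label and 1 rose and 3 fell in Granta-519, with medians of -0.36 and -0.06. Beside this list and the next, 35.3% of all tested genes rose and 31.1% fell under the JeKo-1 label. In Granta-519, 39.6% of all tested genes rose and 31.3% fell. SET fell from 887 to 521 CPM (-0.77 ± 0.04) and SSRP1, a subunit of FACT, from 598 to 397 CPM (-0.59 ± 0.04) under the JeKo-1 label. In Granta-519 SSRP1 fell from 465 to 327 CPM (-0.51 ± 0.04) and SET from 796 to 577 CPM (-0.46 ± 0.04). NAP1L1 rose from 747 to 950 CPM (0.35 ± 0.04) in Granta-519; under the JeKo-1 label its change of 0.10 ± 0.04 passed, but 0 genes of the list rose without chidamide replicate 1 or vehicle replicate 2. Counts of this list in Granta-519 moved with the setting: 2 rose with DESeq2, RLE size factors or upper-quartile scaling, and 5 fell without a count filter or in a fit of its groups alone. Of 8 genes for histone gene transcription and mRNA processing, 1 rose and 5 fell under the JeKo-1 label and 3 rose and 4 fell in Granta-519, with medians of -0.30 and -0.15. LSM10, a subunit of the U7 particle that cuts histone RNA, fell from 82.4 to 43.1 CPM (-0.93 ± 0.07) under the JeKo-1 label and from 31.0 to 21.4 CPM (-0.53 ± 0.08) in Granta-519. LSM11, its partner, fell from 18.1 to 11.7 CPM (-0.63 ± 0.10) under the JeKo-1 label, and HINFP, a factor for H4 genes, from 25.1 to 15.8 CPM (-0.67 ± 0.09) in Granta-519. CASP8AP2 rose under the JeKo-1 label from 59.7 to 72.8 CPM (0.29 ± 0.06). In Granta-519 CASP8AP2 rose from 51.3 to 60.8 CPM (0.24 ± 0.06) and ERI1, a nuclease for histone mRNA, from 50.9 to 60.6 CPM (0.25 ± 0.07). ERI1 fell under the JeKo-1 label (-0.29 ± 0.08, edgeR adjusted p = 0.00123). Values in parentheses are log2 changes with SE, and all those named as rising or falling passed edgeR's test.

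**Figure D4:**
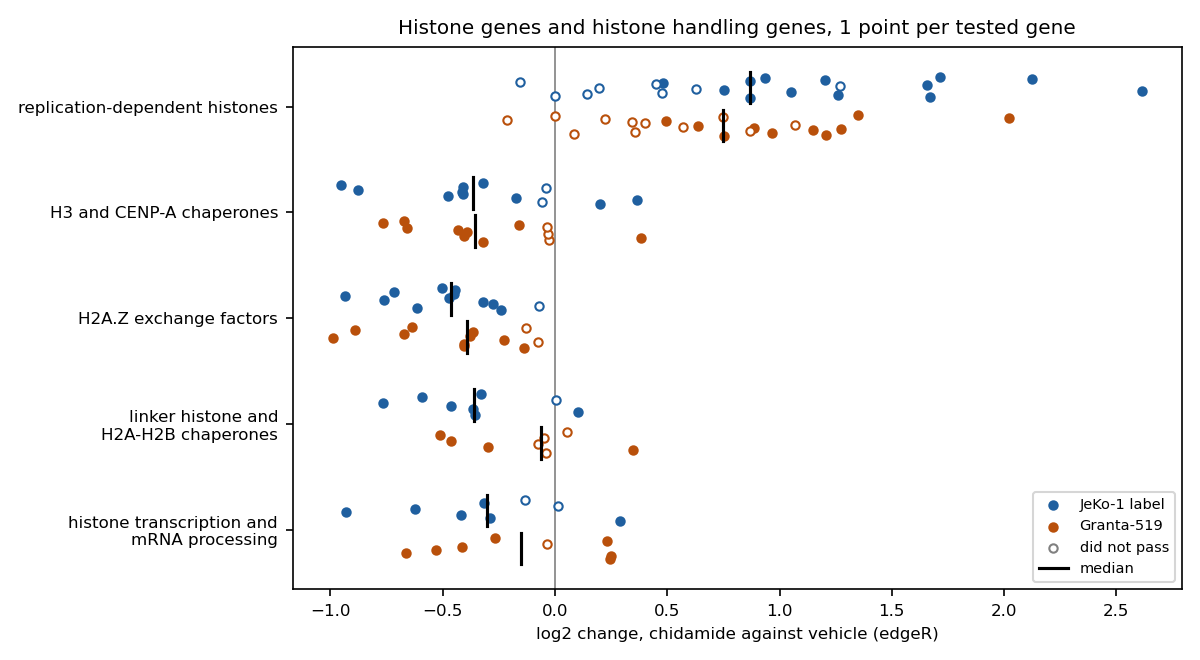
Log2 change with chidamide against vehicle (horizontal axis, edgeR) for each tested gene of 5 lists, with JeKo-1-labelled libraries above and Granta-519 below in each row; filled points passed at an adjusted p under 0.05, open points did not, and black bars are medians. The 21 replication-dependent histones lie mostly to the right and the H2A.Z exchange factors to the left; HIST3H2A, with no counts in Granta-519, is drawn there at 0.

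The genes whose pattern was most like that of H1F0 were ranked by Pearson's r of log2 CPM over the 12 libraries, among 13438 genes with a mean of at least 1 CPM over them. PNMA2 (r = 0.998), RPRML (0.997), NKD2 (0.997), LOC100507351 (0.996) and IGSF9B (0.996) led. Each had 0 CPM in both JeKo-1-labelled groups. In Granta-519 PNMA2 went from 3.13 to 27.1 CPM between vehicle and chidamide, RPRML from 1.72 to 5.69, NKD2 from 1.81 to 11.0, LOC100507351 from 0.740 to 4.25 and IGSF9B from 2.23 to 11.1. The points share libraries and fall into groups, so r is a description. Of the other members, those most like H1F0 were H2AFX (0.93, rank 1591 of 13438), H1FX (0.89, rank 2374), H2AFY2 (0.87, rank 2662) and H2AFJ (0.80, rank 3460). H2AFZ (-0.93) and H3F3B (-0.82) were least like it. H1F0 was at 0 in both JeKo-1-labelled groups, so r also reflects the difference between the lines. H2AFY2 fell with chidamide in Granta-519, from 6.34 to 3.45 CPM, where H1F0 rose.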

How the data were processed

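Polyadenylated RNA of 12 libraries (4 groups of 3) was measured, with groups and replicate numbers from the library titles. The authors deposited a table of counts by gene symbol. STAR and hg19 are named in the submitters' processing notes. The aligner's version, counter, annotation and strand setting are not given in the sources used here, so overlapping genes (H1FX with its antisense gene, H2AFX with DPAGT1, H2AFY with PITX1-AS1, H2AFY2 with AIFM2) may share reads. A second table the authors deposited holds a length-scaled score, a count over a gene constant and the library total; its columns sum to 81790 to 84121, so it is not TPM. Across 12476 genes the constant followed transcript length with Spearman's rho of 0.768. Another 6 unnamed columns held no values and were not used.

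The test was edgeR's quasi-likelihood test (edgeR 4.0.16, R 4.3.3): filterByExpr by group, TMM scaling and a robust quasi-likelihood fit of 4 group means (8 residual degrees of freedom, common biological coefficient of variation 0.0422), two-sided. The SE is the log2 change over the square root of F and is approximate. Bounds against 0 use 3 counts over the group. No spike-in was named, so fewer cells and less RNA per cell cannot be told apart. Replicates differed beyond sampling noise (chi-square per gene 1.618 to 5.394), and none was merged; JeKo-1-labelled vehicle replicate 2 gave the largest differences. Alternatives were DESeq2 1.42.0, limma 3.58.1 on log2(score + 0.1) and log2(score + 0.01), RLE, upper-quartile and library-size scaling, no filter, fits of 2 groups, a replicate block and leaving out each library. The scripts were tested on simulated counts.

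The members and gene lists were chosen with earlier results of these data known. Named are all 10 members, per list the 2 largest rises and 2 largest falls among called genes in each line, and the 5 genes most like H1F0. HIST3H2A, HIST1H4J, HIST1H4K, CENPA, DAXX, H3F3AP4 and H1FX-AS1 were named after their values were seen.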

Additional observations from a re-analysis of the deposited data

Results flagged for a closer look

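For 4 of the 9 tested members the chidamide effect differed between the lines by the interaction term of edgeR's test. Of all tested genes, 39.5% passed this test in either direction. The effect under the JeKo-1 label exceeded that in Granta-519 by 1.13 on the log2 scale for H1FX, by 1.11 for H2AFJ and by 0.42 for H2AFV. Their adjusted p-values were 2.18e-12, 1.84e-05 and 3.07e-08, and all 3 treated libraries were above all 3 vehicle libraries under the JeKo-1 label. For H2AFY2 the difference was flagged at an edgeR adjusted p of 0.00900, on 7 counts in the treated libraries labelled JeKo-1 and 0 in vehicle.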

How the results depend on the processing

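Over 43 member results and their alternatives, 822 of 894 values kept direction and side of the threshold, 17 lost the call, 9 gained one with the same sign and 46 changed sign, of which 7 passed in the new direction. The calls of chidamide against vehicle for H1FX, H2AFJ, H2AFY and H2AFZ in both lines, and for H1F0 in Granta-519, were kept in all 21 alternatives each. The cause of the changes below was not tested.

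In the difference between the lines' chidamide effects, 7 members were higher without a count filter and 1 was lower on the score with either pseudocount; over all genes 4669 were higher without a filter (3015 in the reported fit), and 1919 with library size alone or 1733 without a filter were lower (2941). In vehicle, 1 member was higher under the JeKo-1 label on the score, with library size alone, without a filter and with upper-quartile scaling, and 1 to 2 when a library was left out.

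Sign changes, as log2 values: chidamide against vehicle under the JeKo-1 label, H3F3B 0.0568 and 0.0570 on the score with the larger and smaller pseudocount, 0.0535 with library size alone and 0.0681 with upper-quartile scaling. In Granta-519, H2AFV -0.0427 without a filter and -0.00422 with 2 groups, and H3F3B 0.0276 with upper-quartile scaling. Difference between effects: H2AFY 0.0903 and 0.0907 on the score, 0.0821 with library size and 0.105 without a filter; H2AFZ 0.125, 0.125, 0.117 and 0.141 likewise, and 0.0301 with upper-quartile scaling; H3F3B 0.135, 0.136, 0.127, 0.150 and 0.0404 likewise. With a library left out, this difference ran from -0.0419 to 0.140 for H2AFX, from -0.0646 to 0.00334 for H2AFZ and from -0.0374 to 0.0191 for H3F3B. Lines in vehicle: H2AFY -0.00535 with DESeq2, -0.125 and -0.126 on the score, -0.119 with library size, -0.0851 without a filter, -0.00530 with 2 groups, -0.00601 with RLE, -0.0518 with upper-quartile scaling, and -0.0420 to 0.0482 with a library left out. There H2AFV gave -0.0835 and -0.0842 on the score, -0.0781 with library size, -0.0443 without a filter and -0.0117 with upper-quartile scaling, and H3F3B -0.0123 and -0.0123 on the score and -0.00556 with library size. Lines in chidamide: H2AFY 0.0202 without a filter and 0.0117 with 2 groups. The 7 that passed were the H2AFZ difference on the score (limma adjusted p = 0.0354 and 0.0376) and without a filter (edgeR adjusted p = 0.0461), the H3F3B difference without a filter (edgeR adjusted p = 0.0498), and H2AFY in vehicle on the score (limma adjusted p = 0.00851 and 0.00812) and with library size (edgeR adjusted p = 0.00869). Of these results, H3F3B between lines in vehicle alone had passed in the reported fit.

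Scaling moved the split of all calls: under the JeKo-1 label 53.1% of calls were higher, and 64.9% with upper-quartile scaling and 63.7% with library size alone, which shifted the median of all genes from 0.04 to 0.19 and 0.17. For the difference between effects 50.6% became 70.0% with library size and 72.9% without a filter.

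Samples sharing a replicate number did not deviate together (correlations of -0.026 to 0.035), so the numbers are names. With the replicate block, 5341 genes were higher and 4727 lower under the JeKo-1 label and 5960 and 4754 in Granta-519, and no count of members changed. Counts limit H1F0 and H2AFY2 under the JeKo-1 label.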
